A study of Mus musculus with 8 samples.

Results

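The proteasome subunits are 42 genes that encode the core particle, the regulatory particle, the immunoproteasome subunits and the activators of the proteasome, chosen by name with the testis subunits Psma8 and Psme4 among them. The array measured 41 of them by a probe set, the group of short probes that reads a transcript, annotated to that gene alone, of 18193 genes measured that way in all. The only probe set of Psme2 also names Psme2b, so Psme2 is not reported. Between them the 41 genes had 87 probe sets, and each gene is given here by the probe set with the highest mean over the 8 arrays. Of the 41, 37 had a signal of 100 or more on at least 4 arrays, and 36 on all 8.

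Transcripts were measured in 4 groups of 2 arrays each, which were knockout round spermatids (Hr6b-/-), wild type round spermatids (Hr6b+/+), knockout late spermatocytes and wild type late spermatocytes. All mice were males of the FVB background of 4 to 5 weeks, and the knockout lacks HR6B in every cell, the somatic cells of the testis included. Cells were isolated by sedimentation and a Percoll gradient to a purity above 80%, and the number of mice behind an array is not given in the sources used here, so the p-values cover only how far these arrays spread, which may be technical. HR6B is a ubiquitin-conjugating enzyme, the mouse homolog of yeast Rad6, and its gene Ube2b had a signal of 951 and 1061 in knockout spermatids, against 4599.5 and 4612 in wild type spermatids, and of 833 and 824 in knockout spermatocytes, against 2855 and 3349 in wild type spermatocytes.

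The proteasome degrades proteins that carry ubiquitin chains. Its core particle is a barrel of stacked rings, in which the outer alpha rings hold the gate and the inner beta rings hold the protease sites. The regulatory particle that caps it has a base, with a ring of ATPases that unfold the substrate, and a lid that removes the ubiquitin. Dedicated chaperones assemble both particles. Activators can take the place of the regulatory particle, and immune cells exchange the catalytic beta subunits for inducible ones. In the testis, germ cells from meiosis onwards use the alpha subunit Psma8 in place of Psma7, and the activator Psme4 takes part in the removal of histones in elongating spermatids.

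Signal below is the deposited log2 value brought to the linear scale, and it is compared within a probe set across arrays, never between genes. A log2 fold change is given with its standard error, as spermatids minus spermatocytes or knockout minus wild type, and a gene is called where limma's p, adjusted over all 45037 probe sets, is under 0.05. With 2 arrays against 2, an exact permutation test has no p under 0.333. The isolated fractions differed in the markers of their labels: the summed signal of 8 round spermatid markers was 51644 to 57556 on the spermatid arrays and 3874 to 5665 on the spermatocyte arrays. The sum of 9 spermatocyte markers differed less, with 50473 to 56352 on the spermatocyte arrays and 20790 to 27418 on the spermatid arrays. Of that list Ccna1 was higher on the spermatid arrays, and Sycp1 and Dmc1 overlapped between the stages. In knockout spermatocytes 8 of 8 late spermatid markers were called higher, with a summed signal of 24593 to 34109, against 5469 to 8907 in wild type spermatocytes. In bulk samples, fewer cells of a type and less RNA per cell cannot be told apart.

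The windows around the transcription starts of the members were read from RefSeq, build GRCm38.p6, as 250 bases before to 50 after each start. Windows of 35 members, 38 in all, were used. The 5 printed here belong to the 3 members that rose most in wild type spermatids (Psmd10, Psme3 and Psma6, one of its starts) and to Psma2 and Psmd14, which were among the members that fell most. Each runs 5′ to 3′ along the gene, and capitals mark a match, on either strand, to CCAAT (the CCAAT box), CCGGAAG (an ETS site) or GCGC, any base and TGCGC in a row (a nuclear respiratory factor site).
Psmd10, chrX:140956662-140956961, minus strand: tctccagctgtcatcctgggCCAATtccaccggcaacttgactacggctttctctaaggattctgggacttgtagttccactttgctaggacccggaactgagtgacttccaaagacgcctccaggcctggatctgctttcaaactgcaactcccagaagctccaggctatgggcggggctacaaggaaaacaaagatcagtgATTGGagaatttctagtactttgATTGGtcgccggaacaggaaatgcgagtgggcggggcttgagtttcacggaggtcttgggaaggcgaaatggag
Psme3, chr11:101315963-101316262, plus strand: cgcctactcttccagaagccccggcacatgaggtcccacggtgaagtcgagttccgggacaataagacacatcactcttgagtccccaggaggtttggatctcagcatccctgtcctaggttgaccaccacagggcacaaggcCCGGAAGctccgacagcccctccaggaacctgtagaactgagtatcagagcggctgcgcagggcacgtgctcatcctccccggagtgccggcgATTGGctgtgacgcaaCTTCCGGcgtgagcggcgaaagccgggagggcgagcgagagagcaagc
Psma6, chr12:55398575-55398874, plus strand: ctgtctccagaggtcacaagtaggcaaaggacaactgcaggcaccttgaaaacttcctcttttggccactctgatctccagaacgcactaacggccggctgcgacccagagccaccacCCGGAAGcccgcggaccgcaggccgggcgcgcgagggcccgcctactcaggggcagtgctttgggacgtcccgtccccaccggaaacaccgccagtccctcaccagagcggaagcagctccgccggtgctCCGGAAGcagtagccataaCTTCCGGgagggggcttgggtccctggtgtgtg
Psma2, chr13:14612992-14613291, plus strand: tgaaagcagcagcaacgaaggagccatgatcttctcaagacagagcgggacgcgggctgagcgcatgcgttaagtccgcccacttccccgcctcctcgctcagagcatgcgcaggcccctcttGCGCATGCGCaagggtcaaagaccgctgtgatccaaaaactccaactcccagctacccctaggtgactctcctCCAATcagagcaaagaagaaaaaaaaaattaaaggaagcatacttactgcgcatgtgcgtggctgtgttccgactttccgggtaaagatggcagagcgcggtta
Psmd14, chr2:61711444-61711743, plus strand: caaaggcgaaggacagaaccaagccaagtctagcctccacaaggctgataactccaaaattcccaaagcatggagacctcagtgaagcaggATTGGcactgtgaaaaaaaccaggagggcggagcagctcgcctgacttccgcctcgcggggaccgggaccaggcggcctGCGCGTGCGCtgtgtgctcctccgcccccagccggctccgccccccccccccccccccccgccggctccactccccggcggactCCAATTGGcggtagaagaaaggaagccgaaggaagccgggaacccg
In the Psmd14 window a CCAAT match on one strand overlaps a match on the other. The ETS letters were found in windows of 12 of the 35 members (34.3%), against 9.93% of 27025 genes with a window, and in 4 of the 5 members that were higher in wild type spermatids, 5 of the 20 that were lower and 3 of the 9 that were not called. The nuclear respiratory factor letters were found in 6 members (17.1%), against 5.19% of all genes, and the 6, which were Psmd14, Psmc4, Psma4, Psmc5, Psma3 and Psma2, were all among the 20 members with a window that were lower in wild type spermatids. The CCAAT letters were found in 13 members (37.1%), against 41.1% of all genes, and in 4 of the same 5 higher members, 8 of the 20 lower and 1 of the 9 not called. The palindrome TGACGTCA, bound by the CREB and CREM factors, was found in no member window, against 2.03% of all genes, and TGANTCAGC, an antioxidant response element, was found in Psmb5 alone (2.86% of the members), against 1.37% of all genes. The member windows had a median GC content of 58.1% and a median of 19 CpG dinucleotides, against 52.7% and 7 over all windows. A match is a description of the letters in these windows and says nothing about binding.

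Between the stages, most subunits of the proteasome were lower in spermatids than in spermatocytes. In knockout spermatids 27 of the 41 genes were lower and 6 were higher than in knockout spermatocytes, and in wild type spermatids 26 were lower and 5 were higher than in wild type spermatocytes. Of all genes, 31.1% were called lower and 41.6% higher in the knockout comparison (72.7% in all), and 29.4% lower and 33.7% higher in the wild type comparison (63.2% in all). The median log2 fold change of the members was -0.76 in knockout cells and -0.68 in wild type cells, against 0.21 and 0.15 over all genes and -0.35 and -0.17 over the 9989 genes with a signal of 100 or more on at least 4 arrays. Of those 9989 genes, 50.4% were lower and 35.3% higher in knockout spermatids, and 45.7% lower and 37.4% higher in wild type spermatids. The 2 comparisons used different arrays. They had 25 lower genes and 5 higher genes in common, and Psmb5, Psmb6, Psmb9, Psmc3, Psmc6, Psmd8 and Psmd11 were called in neither. These counts depend on the scaling of the arrays: with the medians of expressed autosomal genes made equal, 19 members were lower and 15 higher in the knockout and 20 lower and 14 higher in wild type, and the median of all genes moved to 0.81 and 0.51. The lower call was then lost by Psma5, Psmb2, Psmb7, Psmc5, Psmd2, Psmd3 and Psmd9 in the knockout, where Psmd12 was called higher, and by Psma4, Psma5, Psmb7, Psmc5, Psmd3 and Psmd7 in wild type. Of the genes called in neither, Psmb6, Psmb9, Psmc3, Psmc6, Psmd8 and Psmd11 were then called higher in both genotypes, and Psmb5 in the knockout.

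**Figure D1:**
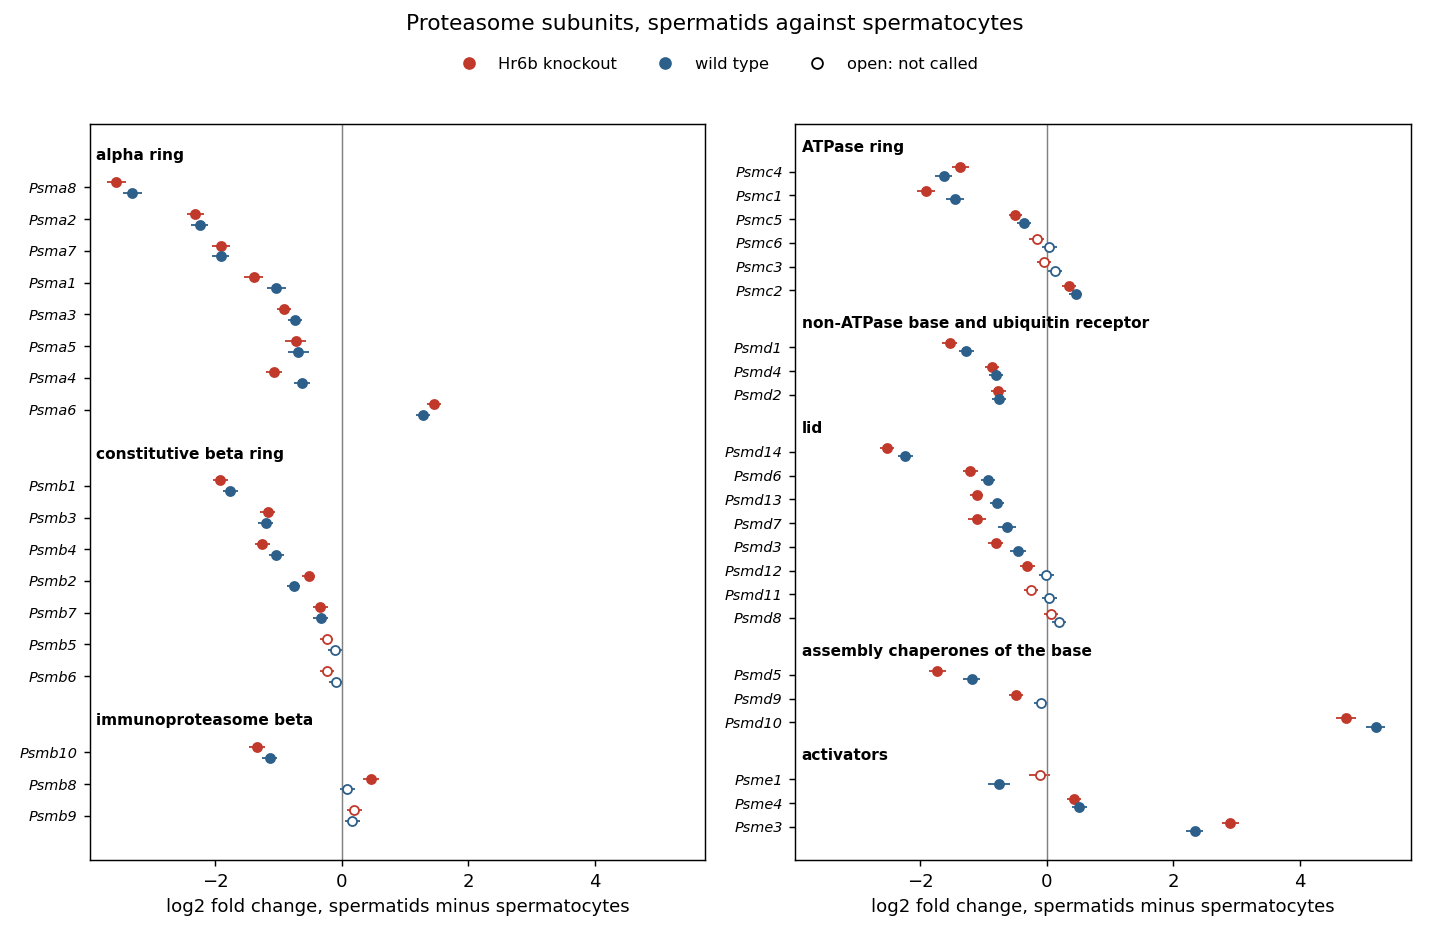
Log2 fold change of each measured subunit between spermatids and spermatocytes (x axis, spermatids minus spermatocytes), by subcomplex, in Hr6b knockout (red) and wild type (blue) cells, with bars for 1 standard error from limma. Filled points were called at an adjusted p under 0.05, open points were not. Most points lie left of 0, while Psmd10, Psme3 and Psma6 lie above 1 in both genotypes.

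In the alpha ring, 7 of the 8 genes fell and Psma6 rose in both genotypes. Psma8, the germ cell alpha subunit, had the largest fall of all members on these probe sets, with a signal of 758 and 817 in knockout spermatids, 1174 and 974 in wild type spermatids, 8914 and 9639.8 in knockout spermatocytes and 9341 and 12004 in wild type spermatocytes. It was 11.8-fold lower in knockout spermatids (log2 fold change -3.56 ± 0.15, adjusted p = 1.55e-08 from limma) and 9.9-fold lower in wild type spermatids (-3.31 ± 0.15, adjusted p = 2.39e-08). Psma7, the ubiquitous subunit whose place Psma8 takes, had 196 and 189 in knockout spermatids, 185 and 179 in wild type spermatids, 659 and 786 in knockout spermatocytes and 615 and 762 in wild type spermatocytes. Both genes of the pair were thus lower in spermatids without overlap, Psma7 by a log2 fold change of -1.90 ± 0.14 in knockout cells and -1.91 ± 0.14 in wild type cells. A second Psma7 probe set fell as well, by 2.32 in knockout cells and 2.07 in wild type cells on the log2 scale.

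Psma2 had 779.6 and 880.5 in knockout spermatids, 986 and 876 in wild type spermatids, 4157 and 4087 in knockout spermatocytes and 3990.4 and 4857 in wild type spermatocytes, or on the log2 scale -2.31 ± 0.13 in knockout cells and -2.24 ± 0.13 in wild type cells. Psma1, Psma3, Psma4 and Psma5, structural subunits of the same ring, had smaller falls, with log2 fold changes from -0.72 (Psma5) to -1.39 (Psma1) in the knockout and from -0.62 (Psma4) to -1.03 (Psma1) in wild type. Psma6 ran the other way, with 15343 and 16099 in knockout spermatids, 13491 and 13563 in wild type spermatids, 5569 and 5886 in knockout spermatocytes and 5582 and 5497 in wild type spermatocytes. Its spermatid arrays all lay above its spermatocyte arrays, 2.75-fold in the knockout (1.46 ± 0.11, adjusted p = 7.83e-07) and 2.44-fold in wild type (1.29 ± 0.11, adjusted p = 2.3e-06), and the other 3 Psma6 probe sets were called higher too, by 1.25 to 1.78 in wild type.

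In the constitutive beta ring, 5 of 7 genes fell in each genotype and none rose. The 3 catalytic subunits changed least: Psmb5, with the chymotrypsin-like site, had 3412 and 3505 in knockout spermatids, 3897 and 3968 in wild type spermatids, 4009 and 4144 in knockout spermatocytes and 4245 and 4206 in wild type spermatocytes. Psmb6, with the caspase-like site, had 5816 and 6135 in knockout spermatids, 7253 and 6888 in wild type spermatids, 6983 and 7035 in knockout spermatocytes and 7299.8 and 7726 in wild type spermatocytes. Psmb7, with the trypsin-like site, had 5533 and 5064 in knockout spermatids, 5973 and 5505 in wild type spermatids, 6379.5 and 7016 in knockout spermatocytes and 7027 and 7380.0 in wild type spermatocytes. Only Psmb7 of the 3 was called, with -0.34 ± 0.12 in the knockout (adjusted p = 0.0282) and -0.33 ± 0.12 in wild type (adjusted p = 0.0368), and that direction turned when the medians of expressed autosomal genes were made equal (0.26 in knockout cells and 0.04 in wild type cells, not called). On the same scale Psmb6 was called higher in both genotypes (0.37 in knockout cells and 0.28 in wild type cells) and Psmb5 in the knockout (0.36). The wild type call of Psmb7 was also lost without any one of the spermatocyte arrays or wild type spermatid arrays (adjusted p of 0.0517 to 0.168), and the knockout call without replicate 2 of the knockout spermatids or spermatocytes (0.13 and 0.164). The structural subunits fell further. Psmb1 had 899 and 1039 in knockout spermatids, 1105 and 1103 in wild type spermatids, 3569 and 3719 in knockout spermatocytes and 3554 and 3935 in wild type spermatocytes, 3.77-fold lower in knockout spermatids (-1.92 ± 0.12) and 3.39-fold lower in wild type spermatids (-1.76 ± 0.12), while Psmb2, Psmb3 and Psmb4 lay between -1.25 and -0.52 in the knockout and between -1.20 and -0.76 in wild type.

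The immunoproteasome subunits, which replace the catalytic beta subunits in immune cells and under interferon, had signals of 21.6 to 134 on the 8 arrays. Psmb8, the counterpart of Psmb5, had 32.3 and 31.0 in knockout spermatids, 25.8 and 24.2 in wild type spermatids, 21.6 and 24.3 in knockout spermatocytes and 25.1 and 21.8 in wild type spermatocytes. Psmb9, the counterpart of Psmb6, had 44.1 and 42.6 in knockout spermatids, 41.2 and 48.5 in wild type spermatids, 37.3 and 38.2 in knockout spermatocytes and 38.4 and 41.2 in wild type spermatocytes. Psmb10, the counterpart of Psmb7, had 48.0 and 54.9 in knockout spermatids, 44.9 and 47.6 in wild type spermatids, 134 and 125 in knockout spermatocytes and 96.0 and 108 in wild type spermatocytes. Psmb10 was 2.53-fold lower in knockout spermatids (-1.34 ± 0.12, adjusted p = 4.57e-06) and 2.2-fold lower in wild type spermatids (-1.14 ± 0.12, adjusted p = 1.78e-05). Psmb8 was called higher in knockout spermatids (0.47 ± 0.12, adjusted p = 0.00749) at a signal of at most 32.3, and its other probe set was not called (0.07). The limma call was lost with cyclic loess (0.19, adjusted p = 0.199) and quantile normalization (0.29, adjusted p = 0.0593). It was also lost without replicate 1 of the knockout spermatocytes (0.38). In wild type Psmb8 changed by 0.09 (adjusted p = 0.559), and the difference between the genotypes was not called (0.38, adjusted p = 0.241). Psmb11, the thymus-specific beta subunit, had signals of 17.9 to 27.4 on the 8 arrays and was not called.

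**Figure D2:**
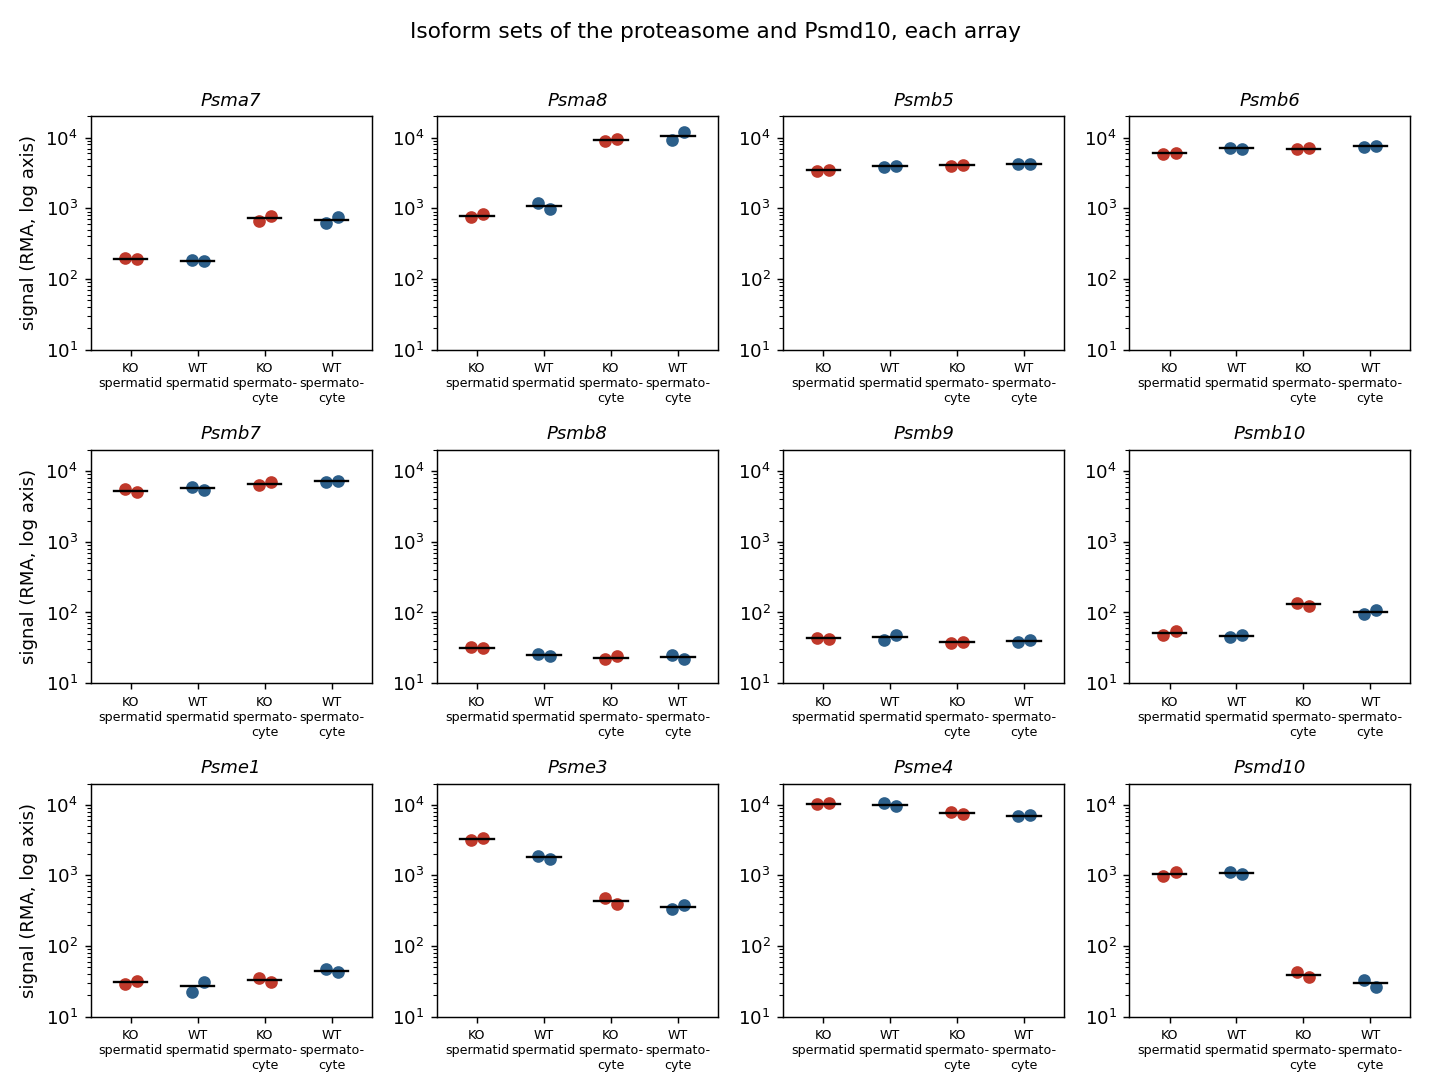
Signal on each array (y axis, RMA values on a log axis) for the members with tissue-specific or inducible counterparts and for Psmd10, in knockout (red) and wild type (blue) cells, with a line at the mean of the 2 arrays. Psma7, Psma8 and Psmb10 are lower and Psme3 and Psmd10 higher on the spermatid arrays; panels of different genes are different probe sets and their heights are not to be compared.

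In the ATPase ring of the base, Psmc1, Psmc4 and Psmc5 fell in both genotypes, Psmc2 rose in both, and Psmc3 and Psmc6 were not called in either. With the medians of expressed autosomal genes equal, Psmc3 and Psmc6 were called higher in both genotypes. Psmc5 changed by -0.50 in knockout cells and -0.36 in wild type cells, and Psmc3 by -0.05 and 0.13. The largest fall in knockout cells was that of Psmc1, with 495 and 647 in knockout spermatids, 747 and 712 in wild type spermatids, 2139.5 and 2118 in knockout spermatocytes and 1896 and 2092 in wild type spermatocytes, and its log2 fold change was -1.91 ± 0.14 in knockout cells and -1.45 ± 0.14 in wild type cells. In wild type cells it was that of Psmc4, with 714 and 787 in knockout spermatids, 634 and 721 in wild type spermatids, 1765 and 2118 in knockout spermatocytes and 2203 and 1983 in wild type spermatocytes, and its log2 fold change was -1.37 ± 0.14 in knockout cells and -1.63 ± 0.14 in wild type cells. Psmc2 had 12617 and 12899.9 in knockout spermatids, 13436 and 13225 in wild type spermatids, 9754 and 10249.5 in knockout spermatocytes and 9572 and 9880.4 in wild type spermatocytes, a rise of 1.28-fold in knockout spermatids (adjusted p = 0.0154) and 1.37-fold in wild type spermatids (adjusted p = 0.00442). Its knockout call was lost without replicate 1 of the knockout spermatocytes (0.32) or replicate 2 of the knockout spermatids (0.34). The probe sets of Psmc6 differed from each other: the brightest changed by -0.16 in knockout cells and 0.04 in wild type cells, while a dimmer one had 14.5 and 16.3 in knockout spermatids, 23.0 and 24.1 in wild type spermatids, 151 and 183 in knockout spermatocytes and 143 and 188 in wild type spermatocytes. That dimmer probe set was called lower in both, with log2 fold changes of -3.44 in knockout cells and -2.80 in wild type cells.

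The other base subunits all fell. Psmd1, the largest scaffold subunit, had 1097 and 1204 in knockout spermatids, 1454 and 1387 in wild type spermatids, 3296 and 3376 in knockout spermatocytes and 3227 and 3649 in wild type spermatocytes, with -1.54 ± 0.12 in knockout cells and -1.27 ± 0.12 in wild type cells. Psmd2, its partner scaffold, and Psmd4, a ubiquitin receptor, fell by 0.76 and 0.86 in the knockout and by 0.75 and 0.80 in wild type on the log2 scale.

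In the lid, 6 of 8 genes fell in knockout cells and 5 in wild type cells. Psmd14, the deubiquitylating enzyme of the lid, had 731 and 774 in knockout spermatids, 985 and 881 in wild type spermatids, 4475 and 4193 in knockout spermatocytes and 4181 and 4584 in wild type spermatocytes, 5.76-fold lower in knockout spermatids (-2.52 ± 0.12, adjusted p = 2.86e-08) and 4.7-fold lower in wild type spermatids (-2.23 ± 0.12, adjusted p = 7.16e-08). The structural lid subunits Psmd3, Psmd6, Psmd7 and Psmd13 fell by less, to -1.21 at the most in knockout cells and -0.93 in wild type cells, both for Psmd6. Psmd12 was called lower in the knockout (-0.31, adjusted p = 0.0424) and not in wild type (-0.01, adjusted p = 0.962), a difference that was not called itself (adjusted p = 0.328). The knockout call was lost without any one of the knockout or wild type spermatid arrays, and with the medians of expressed autosomal genes equal Psmd12 was called higher there (0.29). Psmd8 had the highest log2 fold change of the lid, with a signal of 8640.2 and 8767 in knockout spermatids, 8744 and 8404 in wild type spermatids, 8729 and 7912 in knockout spermatocytes and 7285 and 7782 in wild type spermatocytes, and was called in neither genotype. With the medians of expressed autosomal genes equal, Psmd8 was called higher in both (0.67 in knockout cells and 0.55 in wild type cells), as with cyclic loess. Psmd11, another structural subunit, had 8 probe sets that ran both ways: the brightest changed by -0.25 in knockout cells and 0.04 in wild type cells, one with a mean signal of 931 and 1230 in knockout and wild type spermatocytes changed by -3.30 and -2.92, and a dim one by 1.78 and 2.25. Over the 22 members with several probe sets, 3 had probe sets called in opposite directions in the knockout comparison (Psmd11, Psme3 and Psme4) and 4 in the wild type comparison (Psmd7 in addition).

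The chaperones that assemble the base went apart from each other. Psmd10, which is on the X chromosome and encodes gankyrin, a chaperone first known as an oncoprotein of the liver, had the largest rise of all members, with 966 and 1122 in knockout spermatids, 1130.4 and 1036 in wild type spermatids, 42.9 and 36.1 in knockout spermatocytes and 33.2 and 26.3 in wild type spermatocytes. It was 26.5-fold higher in knockout spermatids (4.73 ± 0.15, adjusted p = 4.45e-09) and 36.6-fold higher in wild type spermatids (5.20 ± 0.15, adjusted p = 2.08e-09). Its spermatocyte signals lay at or below the median of all probe sets on each spermatocyte array (5.43 to 5.46 on the log2 scale), and no detection call was used, so these folds rest on a dim signal. It was the only X-linked member, it had 1 probe set, and its annotated span overlaps that of Atg4a. Spans of Psma4, Psmd1, Psme1 and Psme4 also overlap another protein-coding gene, and whether their probe sets read it was not tested. Psmd5 had 169 and 204 in knockout spermatids, 236 and 202 in wild type spermatids, 635 and 595 in knockout spermatocytes and 481 and 515 in wild type spermatocytes, with -1.73 ± 0.14 in knockout cells and -1.19 ± 0.14 in wild type cells. Psmd9 was called lower in the knockout (-0.49, adjusted p = 0.00361) and not in wild type (-0.09, adjusted p = 0.513), and the difference between these was not called (adjusted p = 0.182).

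Among the activators, Psme3 and Psme4 rose in both genotypes. Psme3, a nuclear activator that promotes degradation without ubiquitin, had 3163 and 3368 in knockout spermatids, 1901 and 1722 in wild type spermatids, 482 and 395 in knockout spermatocytes and 338 and 378 in wild type spermatocytes, 7.47-fold higher in knockout spermatids (2.90 ± 0.13, adjusted p = 2.64e-08) and 5.06-fold higher in wild type spermatids (2.34 ± 0.13, adjusted p = 1.27e-07). Psme4 had 10126 and 10546 in knockout spermatids, 10505 and 9632 in wild type spermatids, 7942 and 7439 in knockout spermatocytes and 6892 and 7178 in wild type spermatocytes, with 0.43 ± 0.11 in the knockout (adjusted p = 0.00729) and 0.52 ± 0.11 in wild type (adjusted p = 0.00274). Of its 6 probe sets the 3 brightest were called higher, and the 3 dim ones, with mean signals under 110, were called lower in the knockout and 2 of them in wild type, and the mean of the 6 was not called (-0.08 in knockout cells and 0.06 in wild type cells). The knockout call of Psme4 was also lost without replicate 2 of the knockout spermatocytes (0.38). Psme1, a subunit of the activator induced by interferon, had 28.7 and 32.4 in knockout spermatids, 22.2 and 31.4 in wild type spermatids, 35.3 and 30.7 in knockout spermatocytes and 46.7 and 42.5 in wild type spermatocytes, low on every array, and was called lower in wild type (-0.75 ± 0.17, adjusted p = 0.00326) but not in the knockout (-0.11 ± 0.17, adjusted p = 0.585). The difference for Psme1 was not called (adjusted p = 0.148).

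Between the genotypes in spermatids, 4 of the 41 members were called. Psme3 was higher in the knockout, and Psmd3, Psmd9 and Psmd13 were lower. Of all genes, 6.93% were called higher and 12.9% lower (19.8% in all), and of the 9989 genes with a signal of 100 or more on at least 4 arrays 7.29% and 21.1%. The members had a median log2 fold change of -0.17, against 0.01 over all genes and -0.14 over those 9989 genes, and 31 of 41 were below 0. The lower calls rest on the scaling of the arrays. The median log2 value of expressed autosomal genes was 8.62 and 8.69 on the knockout spermatid arrays and 8.88 and 8.88 on the wild type ones, and with these medians made equal 4 members were higher (Psma6, Psmb8, Psmb10 and Psme3) and none was lower, with the median of the members at 0.04 and that of all genes at 0.22.

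**Figure D3:**
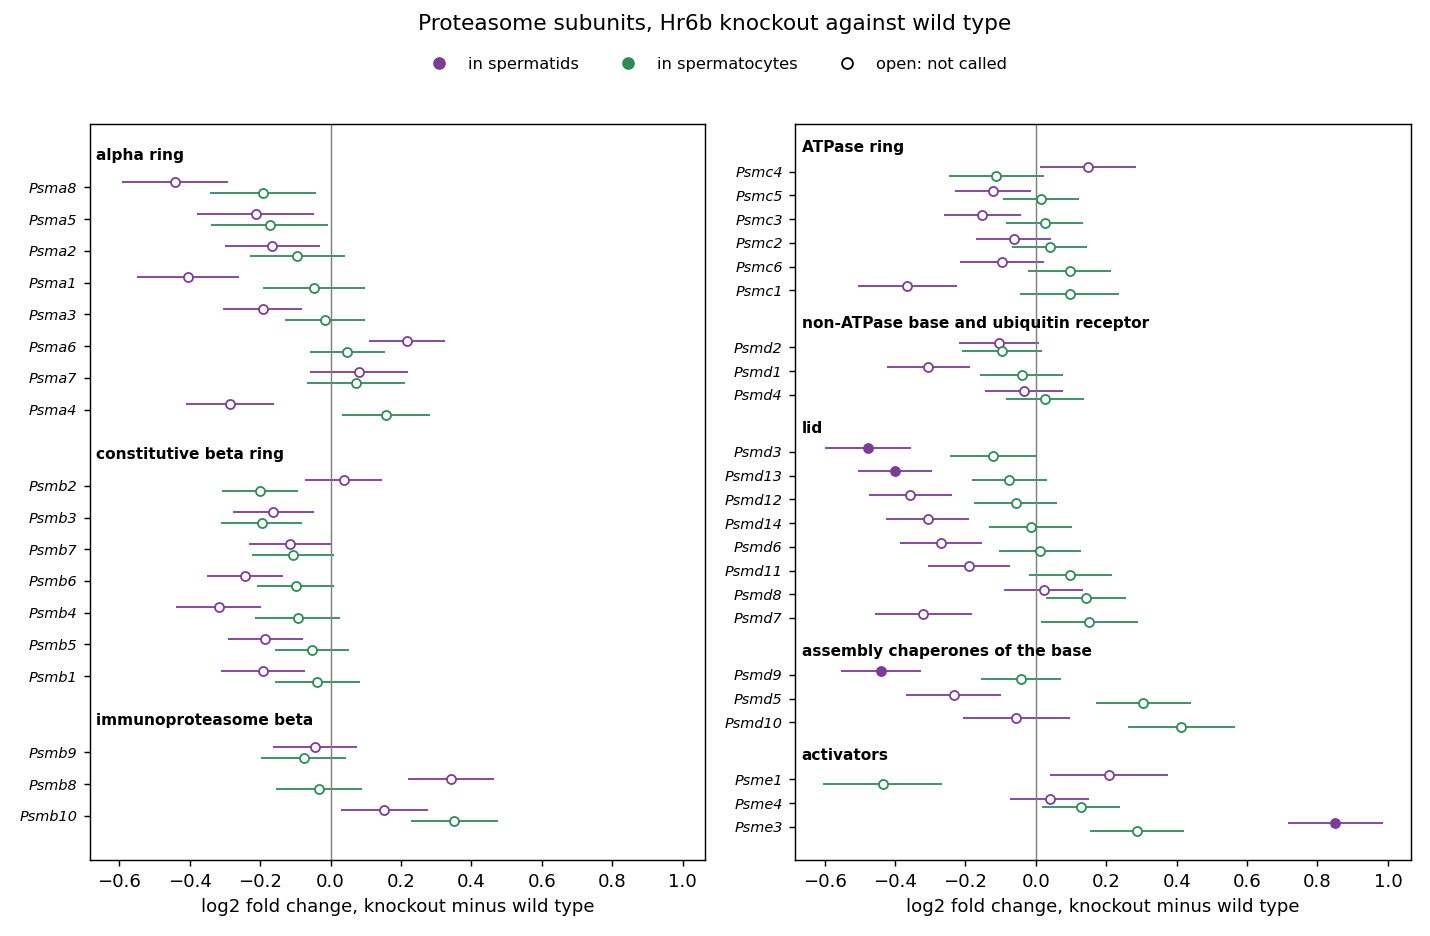
Log2 fold change of each measured subunit between Hr6b knockout and wild type cells (x axis, knockout minus wild type), by subcomplex, in spermatids (purple) and in spermatocytes (green), with bars for 1 standard error from limma. Filled points were called at an adjusted p under 0.05. Psme3 lies at 0.85 and Psmd3, Psmd9 and Psmd13 between -0.48 and -0.40 in spermatids, and no point is filled for spermatocytes.

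Psme3 had a signal of 3163 and 3368 in knockout spermatids, against 1901 and 1722 in wild type spermatids, 1.8-fold higher in the knockout (0.85 ± 0.13, adjusted p = 0.00314 from limma). Both knockout arrays lay above both wild type arrays. The other probe sets of Psme3 did not all follow. A second one had 127 and 90.2 in knockout spermatids, against 186 and 169 in wild type spermatids, and was called lower (-0.73), and on it Psme3 was also lower in spermatids than in spermatocytes, where it had 300.0 and 337 in knockout cells and 429 and 374 in wild type cells. The third was dim, with 26.5 and 24.0 in knockout spermatids, against 18.1 and 17.9 in wild type spermatids, and was called higher (0.48). The mean of the 3 probe sets was not called (0.20, adjusted p = 0.178). Psme3 was the only member whose probe sets were called in opposite directions in this comparison.

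**Figure D4:**
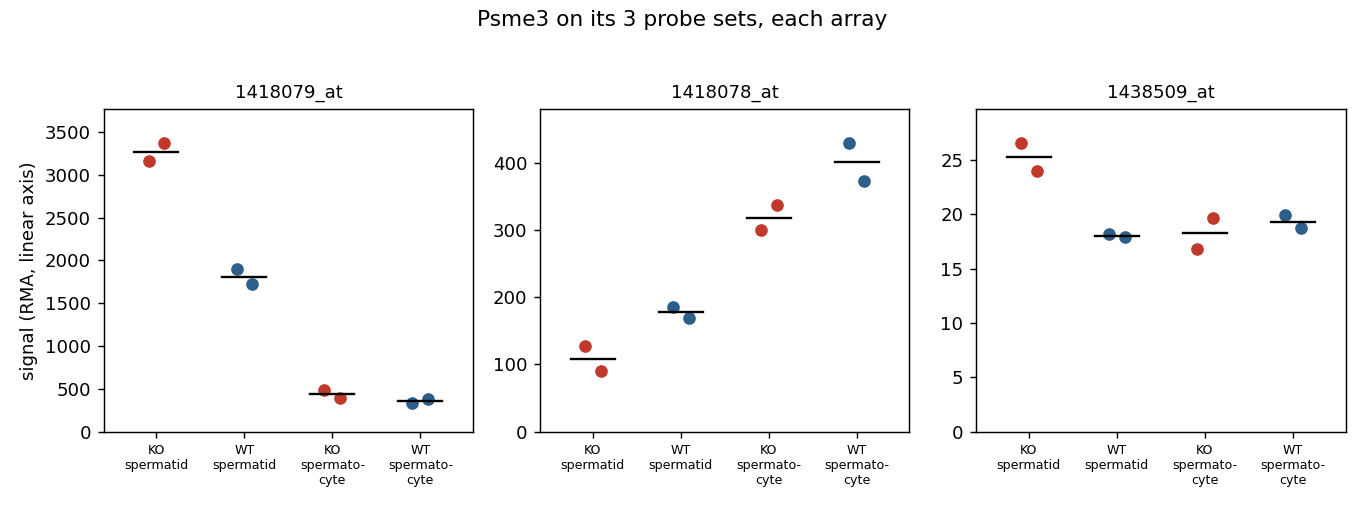
Signal of Psme3 on each array (y axes, RMA values on linear axes from 0, with a scale of its own for each panel) on its 3 probe sets, in knockout (red) and wild type (blue) cells, with a line at the mean of 2 arrays. The brightest probe set is highest in knockout spermatids, the second is lowest there, and the third stays under 30 on every array.

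Of the 3 genes that were lower in knockout spermatids, Psmd3 and Psmd13 encode subunits of the lid, and Psmd9 encodes a chaperone that assembles the base. Psmd3, a structural subunit of the lid, had 504 and 514 in knockout spermatids, against 687 and 729 in wild type spermatids, 1.39-fold lower (-0.48 ± 0.12, adjusted p = 0.0284). Psmd13, another lid subunit, had 840.0 and 839.5 in knockout spermatids, against 1099 and 1116 in wild type spermatids, 1.32-fold lower (-0.40 ± 0.11, adjusted p = 0.0322), and of its other probe sets one was called lower (-0.54). Psmd9, the chaperone of the base, had 733 and 832 in knockout spermatids, against 1054 and 1062 in wild type spermatids, 1.36-fold lower (-0.44 ± 0.11, adjusted p = 0.0296), while its 2 dimmer probe sets were not called. For each of the 3 genes both knockout arrays lay below both wild type arrays. With the mean of all probe sets, limma did not call Psmd13 (-0.28, adjusted p = 0.0666) or Psmd9 (-0.29, adjusted p = 0.0703). Fitted to only the 4 spermatid arrays, Psmd13 and Psmd9 were not called either (adjusted p of 0.0646 and 0.0601). None of the 3 was called when the autosomal medians were made equal (Psmd3 -0.27, Psmd13 -0.19 and Psmd9 -0.23), with cyclic loess or quantile normalization, or without replicate 1 of the knockout spermatids, either wild type spermatid replicate or either knockout spermatocyte replicate. Without replicate 2 of the knockout spermatids, Psmd9 and Psmc1 were called.

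The remaining 37 members were not called in spermatids, although a dimmer probe set was called lower for Psmd11 (-0.76), Psmc6 (-0.62) and Psmd7 (-0.60). Over all members, both knockout arrays lay below both wild type arrays for 22 genes and above them for 6 (53.7% and 14.6% of the 41). Of all genes, 32.5% lay below and 30.6% above in the same way, and of the 9989 genes with a signal of 100 or more on at least 4 arrays 49.6% and 24.3%. The lid had the lowest median, -0.31 over 8 genes, followed by the chaperones of the base (-0.23 over 3), the alpha ring (-0.20 over 8) and the constitutive beta ring (-0.19 over 7). Psma8 had 758 and 817 in knockout spermatids, against 1174 and 974 in wild type spermatids (-0.44 ± 0.15, adjusted p = 0.0807), and Psma7 changed by 0.08 ± 0.14 (adjusted p = 0.764). The catalytic subunits Psmb5, Psmb6 and Psmb7 changed by -0.19 ± 0.11, -0.24 ± 0.11 and -0.12 ± 0.12, with adjusted p of 0.292, 0.178 and 0.58. Psmb8, Psmb9 and Psmb10 of the immunoproteasome changed by 0.34 ± 0.12, -0.04 ± 0.12 and 0.15 ± 0.12, with adjusted p of 0.0959, 0.854 and 0.474. The activators Psme4 and Psme1 changed by 0.04 ± 0.11 and 0.21 ± 0.17 (adjusted p = 0.862 and 0.474).

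Summed signals of marker lists differed between the spermatid groups as well. Of all 64 markers measured, 10.9% were called higher and none lower, against 6.93% higher and 12.9% lower of all genes. Of 10 leukocyte markers 1 was called higher and none lower, with a summed signal of 912 to 976 in knockout and 765 to 789 in wild type spermatids, and of 11 Sertoli cell markers 2 were called higher and none lower, with 925 to 1009.8 in knockout and 687 to 772 in wild type spermatids. Spermatocyte markers summed to 20790 to 22099 in knockout and 26617 to 27418 in wild type spermatids, with none of 9 called, and late spermatid markers to 182248 to 184072 in knockout and 140694 to 144154 in wild type spermatids, with none of 8 called. Of the other lists, 2 of 7 spermatogonium markers, 1 of 8 round spermatid markers and 1 of 7 markers of peritubular and endothelial cells were called higher, and none of 4 Leydig cell markers was called. The sum of the peritubular and endothelial markers was lower in knockout spermatids, with 484 to 510, against 516 to 529 in wild type spermatids. The spermatogonium, round spermatid and Leydig cell sums were higher there (534 to 557, 56093 to 57556 and 264, against 371 to 415, 51644 to 53949 and 214 to 223). The mean signal reached 100 for 3 of the 10 leukocyte markers in each spermatid group. It did so for 3 of the 11 Sertoli cell markers in knockout and 2 in wild type spermatids. The part of these lists in the results above was not tested.

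In spermatocytes, none of the 41 members was called between knockout and wild type by limma, and 4 had an unadjusted p under 0.05 (Psmb10, Psmd5 and Psmd10 higher, Psme1 lower). Of all genes, 2.73% were called (2.22% higher and 0.511% lower). None was called under any of the 17 alternative settings either. The members had a median log2 fold change of -0.03, against -0.00035 over all genes, and both knockout arrays lay above both wild type arrays for 8 genes and below them for 9 (19.5% and 22.0% of the 41), against 23.1% and 21.8% of all genes. Of the 9989 genes with a signal of 100 or more on at least 4 arrays, 30.1% lay above and 20.5% below, with a median of 0.03. Psmb10, with the lowest adjusted p, had 134 and 125 in knockout spermatocytes, against 96.0 and 108 in wild type spermatocytes (0.35 ± 0.12, adjusted p = 0.28). Psmd10 had 42.9 and 36.1 in knockout spermatocytes, against 33.2 and 26.3 in wild type spermatocytes (0.41 ± 0.15, adjusted p = 0.313), beside late spermatid markers that were called higher in the same arrays for 8 of 8 genes, and round spermatid markers for 2 of 8. Their part in it was not tested, and of the other lists 1 of 7 spermatogonium markers was called lower and the rest not at all. Psme1 had 35.3 and 30.7 in knockout spermatocytes, against 46.7 and 42.5 in wild type spermatocytes (-0.44 ± 0.17, adjusted p = 0.345). The pair Psma7 and Psma8 changed by 0.07 ± 0.14 and -0.19 ± 0.15, the catalytic subunits Psmb5, Psmb6 and Psmb7 by -0.11 to -0.05, and Psme3 and Psme4 by 0.29 ± 0.13 and 0.13 ± 0.11. All 7 genes of the constitutive beta ring were below 0, by 0.04 to 0.20 on the log2 scale, and 5 of 6 genes of the ATPase ring were above 0.

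The genotype effect in spermatids was set against that in spermatocytes in the same model. No member was called for this difference by limma, with 7 at an unadjusted p under 0.05 (Psme1 and Psme3 higher, Psma4, Psmc1, Psmd5, Psmd7 and Psmd9 lower), and 6.72% of all genes were called (2.11% higher and 4.61% lower). Psme3 had the lowest adjusted p (0.118), with a difference of 0.56 ± 0.19, and it was called when the autosomal medians were made equal and with cyclic loess. The mean of all probe sets gave a lower call for Psmd7.

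Of 28 measured genes that work with the proteasome, 4 were called between knockout and wild type spermatids, against 19.8% of all genes. Psmf1, an inhibitor of the core particle, had 7935 and 8318 in knockout spermatids, against 5514 and 5779 in wild type spermatids (0.53 ± 0.11, adjusted p = 0.0126). Pomp, which matures the core particle, had 404 and 478 in knockout spermatids, against 631 and 578 in wild type spermatids (-0.46 ± 0.13, adjusted p = 0.0382). Vcp, the ATPase that extracts ubiquitylated proteins from complexes, had 2341 and 2492 in knockout spermatids, against 3387 and 3305 in wild type spermatids (-0.47 ± 0.11, adjusted p = 0.0192). In these genes the groups did not overlap on these probe sets, with Psmf1 higher and the others lower in the knockout. Nfe2l1, the factor that induces subunit genes when the proteasome is inhibited, had 177 and 166 in knockout spermatids, against 227 and 259.9 in wild type spermatids (-0.50 ± 0.12, adjusted p = 0.0189). The mean of the Psmf1 probe sets was not called (0.014, adjusted p = 0.936), and neither were Pomp, Vcp and Nfe2l1 when the autosomal medians were made equal (-0.25, -0.26 and -0.29). Without replicate 1 of the knockout spermatids none of the 4 was called. In spermatocytes 1 of the 28 (3.57%) was called, against 2.73% of all genes. It was the shuttle Ddi1, with 259 and 219 in knockout spermatocytes, against 120.4 and 75.1 in wild type spermatocytes (1.33 ± 0.19, adjusted p = 0.00916), beside the higher late spermatid markers of the knockout spermatocytes, whose part in it was not tested. Ddi1 was not called with those 4 arrays alone or without replicate 1 of the knockout spermatocytes.

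Between the stages, 17 of these 28 genes were lower and 10 higher in knockout spermatids, and 16 lower and 9 higher in wild type spermatids, against 31.1% lower and 41.6% higher of all genes in the knockout and 29.4% and 33.7% in wild type. Among the chaperones of the core particle the largest fall in wild type was that of Psmg3, with 82.7 and 84.5 in knockout spermatids, 99.0 and 92.3 in wild type spermatids, 575 and 574 in knockout spermatocytes and 613 and 529.6 in wild type spermatocytes. Ublcp1, a phosphatase of the nuclear proteasome, had the largest fall of the proteasome-bound proteins, with 92.9 and 129 in knockout spermatids, 129 and 123 in wild type spermatids, 1697 and 1937 in knockout spermatocytes and 1732 and 2053 in wild type spermatocytes, 16.5-fold lower in knockout and 15.0-fold lower in wild type spermatids. Nsfl1c, a cofactor of Vcp, changed by -2.79 ± 0.15 in knockout cells and -2.92 ± 0.15 in wild type cells. The genes that rose most were Ddi1, with 6270.3 and 6570.3 in knockout spermatids, 6478 and 6223 in wild type spermatids, 259 and 219 in knockout spermatocytes and 120.4 and 75.1 in wild type spermatocytes, and Nfe2l2, the factor of the oxidative stress response, with 924 and 916 in knockout spermatids, 761 and 835 in wild type spermatids, 69.9 and 64.1 in knockout spermatocytes and 62.6 and 55.1 in wild type spermatocytes. Both were higher on all spermatid arrays than on any spermatocyte array, Nfe2l2 by 3.78 ± 0.12 in knockout cells and 3.76 ± 0.12 in wild type cells.

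Of 9 measured genes of antigen processing and the interferon response, which handle the peptides that the proteasome makes, 3 were higher and none lower in knockout spermatids, where 6.93% of all genes were higher and 12.9% lower. Nlrc5, the activator of class I genes, had 98.9 and 111 in knockout spermatids, against 46.4 and 54.9 in wild type spermatids (1.05 ± 0.15, adjusted p = 0.00174). Erap1, which trims peptides, had 28.0 and 29.7 in knockout spermatids, against 20.0 and 16.2 in wild type spermatids (0.68 ± 0.14, adjusted p = 0.00995), and H2-D1, a class I heavy chain, had 477 and 484 in knockout spermatids, against 291 and 338 in wild type spermatids (0.61 ± 0.12, adjusted p = 0.00918). The knockout arrays were the higher ones for all 3, at low signals for Nlrc5 and Erap1. H2-D1, whose family holds near-identical genes, was not called on the probe sets left when those marked as able to bind other transcripts were dropped (0.0083, adjusted p = 0.983). H2-D1 was also lost without replicate 1 of either spermatid group, and Erap1 without either knockout spermatid replicate or replicate 2 of the wild type spermatids. The summed signal of the leukocyte markers given above was also higher, with 1 of 10 called, and their part in this was not tested. In wild type cells 1 of the 9 genes (Nlrc5) was higher and 4 were lower in spermatids than in spermatocytes, and in knockout cells 4 were higher and 4 lower, beside 33.7% higher and 29.4% lower of all genes in wild type and 41.6% and 31.1% in the knockout.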

How the data were processed

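Affymetrix whole-genome mouse arrays of isolated knockout and wild type round spermatids and late spermatocytes were used. The authors background-corrected, normalised and summarised the probes with RMA, per the labels, and the deposited values are on the log2 scale. They were used without further normalization. A mean for each of the 4 groups was fitted to all 8 arrays with lmFit and eBayes (limma 3.58.1, R 4.3.3), with 4 residual and 5.85 prior degrees of freedom, two-sided tests and Benjamini-Hochberg adjustment over 45037 probe sets, leaving out 64 control probe sets. Genes were named from the platform annotation: 34945 probe sets had 1 gene, 932 several and 9160 none. Values on each array are given for isoform sets, members called between genotypes, and the largest stage changes of each subcomplex. The members and lists were chosen with earlier results of these data known. Sequence windows came from RefSeq (GRCm38.p6). The fit was tested on simulated data. The planted changes were larger than the genotype effects of the called members, so the test does not cover those sizes. Alternatives covered the scaling, the arrays fitted, the spread, a signal filter, the probe set choice and each array left out. The number of arrays limits the precision.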

Additional observations from a re-analysis of the deposited data

Results flagged for a closer look

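For Ddi1 and Nlrc5, the genotype effect differed between the cell types by the test of the difference itself (limma's interaction, adjusted over all probe sets). For Ddi1 the effect in spermatids minus that in spermatocytes was -1.31 (standard error 0.27, adjusted p = 0.032): the log2 fold change, knockout minus wild type, was 0.02 in spermatids and 1.33 in spermatocytes. The same difference was called lower for 6 of 8 late spermatid markers (median -1.55), and their part in it was not tested. For Nlrc5 the difference was 0.96 (standard error 0.21, adjusted p = 0.0341), with 1.05 in spermatids and 0.09 in spermatocytes, where its signal was 16.6 to 21.0 on the 4 arrays. Counting the main fit as a setting, the difference was called in 8 of 17 settings for Ddi1 and in 8 of 16 for Nlrc5. Leaving out single arrays, Ddi1 was called only without either wild type spermatocyte array and Nlrc5 only without replicate 2 of the wild type spermatocytes. Groups of 2 arrays are too small to test for an outlying array.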

How the results depend on the processing

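Among the gene values under the alternatives, 1197 kept their side of the threshold, 99 lost and 17 gained a call, and 8 turned with a call before or after. Values that changed sign without a call before or after are counted among the 1197. For the changes below the cause was not tested. In spermatids of knockout against wild type, 1 member was higher and 3 lower; 4 were higher and 0 lower with the medians of expressed autosomal genes equal, 2 and 0 with cyclic loess, 2 and 10 with a variance trend, 0 higher with the mean of all probe sets, 1 lower with only the 4 arrays compared and 0 lower with quantile normalization. The median (-0.17) became 0.044 with equal medians, 0.040 with cyclic loess and -0.091 with quantile normalization. With the mean of all probe sets the 3 lower members were Psmb4, Psmd3 and Psmd12. Leaving out each array gave 1 to 1 higher, 0 to 4 lower and medians of -0.25 to -0.10. No gene was lower without either knockout spermatocyte array, replicate 1 of the knockout spermatids or either wild type spermatid array, and Psme3 was higher without each of the 8 arrays.

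In wild type spermatids against spermatocytes, 5 members were higher and 26 lower (median -0.68); with equal medians 14 were higher, and the median was -0.32, against -0.39 with cyclic loess and -0.46 with the mean of probe sets. In the knockout, 6 were higher and 27 lower (median -0.76); with equal medians 15 were higher, and the median was -0.16, against -0.36 with cyclic loess, -0.59 with quantile normalization and -0.50 with the mean of probe sets. Leaving out each array gave 5 to 5 higher, 23 to 26 lower and medians of -0.76 to -0.59 in wild type, and 4 to 6, 25 to 27 and -0.86 to -0.67 in the knockout. With equal medians, Psmb6 (0.28) and Psmb7 (0.037) turned in wild type and Psmb5 (0.36), Psmb6 (0.37), Psmb7 (0.26) and Psme1 (0.49) in the knockout, where Psmb7 also turned with cyclic loess (0.078) and Psme4 with the mean of probe sets (-0.078). Psmd12, which is not counted among those 8, turned in the knockout with equal medians (0.29).

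Between knockout and wild type spermatocytes, leaving out each array gave 0 to 0 higher, 0 to 0 lower and medians of -0.05 to 0.04. For the difference between cell types, 1 member was higher with equal medians and with cyclic loess (Psme3) and 1 lower with the mean of probe sets (Psmd7), against 0 and 0; its median (-0.16) was 0.081, 0.070 and, with quantile normalization, -0.077. Leaving out each array gave 0 to 0 of both and medians of -0.22 to -0.11. Of the partner and antigen genes, 1 was called in spermatocytes and 7 in spermatids; with only the 4 arrays compared the count in spermatocytes was 0, and in spermatids it was 11 with equal medians and 4 with quantile normalization. Leaving out each array gave 0 to 1 in spermatocytes (0 without knockout replicate 1) and 1 to 7 in spermatids (1 without knockout replicate 1, 3 without wild type replicate 2, 4 without wild type replicate 1).

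With the replicate number as a block, 1 member was higher and 3 were lower in knockout spermatids, as without it. Between the stages it ended the calls of Psmb7 in wild type (25 lower, against 26) and Psmd12 in the knockout (26 lower, against 27), and it changed no other member's call. The deviations of same-numbered arrays had correlations of -0.23 to 0.22 between groups. With 2 arrays per group these cannot decide whether the numbers pair the samples. Groups of 2 arrays and dim signals limit Psmb8, Psmb9 and Psme1.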
